A study of Caenorhabditis elegans with 2 samples.

Results

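The 9 genes described here are identity genes of the cholinergic motor neurons of Caenorhabditis elegans: unc-3, unc-17, cha-1, cho-1, acr-2, acr-5, del-1, unc-4 and vab-7. They were taken by name as genes of the alternative, excitatory motor neuron fates, and are 9 of 19973 protein-coding genes on the nuclear chromosomes of the annotation (WBcel235, the assembly of build ce11). The data are chromatin immunoprecipitation with sequencing (ChIP-seq) of UNC-30 in 1 group of 2 libraries, biological replicates 1 and 2. Both came from whole L1 larvae, sexes pooled, of strain OP395, genotype unc-119(tm4063) III; wgIs395, a single line with an integrated transgene for UNC-30 fused at its C terminus to GFP-FLAG. The sequence that drives the transgene is not given in the labels, and there was no second condition, so nothing below is a comparison between groups and no test was made. Region lists hold no expression values, so the labelled stage and tissue could not be checked against marker genes. In whole larvae, fewer cells with the protein at a site and less protein per cell there cannot be told apart.

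The ventral nerve cord holds excitatory motor neurons, which release acetylcholine onto body wall muscle, and inhibitory D-type motor neurons, which release GABA. UNC-3, a factor of the COE family (collier, olfactory, EBF), switches on the shared genes of the cholinergic class, while UNC-30, a homeodomain protein of the Pitx family, does so for the D-type neurons. At hatching the cord contains the cholinergic DA and DB classes and the GABAergic DD class, and the other classes are born later in larval life. The question these genes put to the data is whether UNC-30 is found at genes of a fate that the D-type neurons do not take. Which cells of the larvae held the protein is not shown by these data.

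Each deposited ce11 candidate list holds 30000 regions, and the q values of the pooled regions at these genes ran from 0.714 to 0.968, so the presence of a region is not by itself a binding site. A region counted for a gene when its summit lay between 5000 bp upstream of the annotated 5′ end and the gene's 3′ end. Each region has a signal, a value deposited by the authors, and its rank by signal within its own list. The sources used here do not give what the signal measures or its scale. The 125 peaks that passed the authors' reproducibility threshold began at a signal of 39.2, and 0 of them lay in the window of any of the 9 genes. The genes of the GABA fate used for reference, unc-25, unc-47 and unc-30, had 0 as well. The share over all protein-coding genes was not computed. Since 125 peaks can reach few of 19973 genes, this absence does not set the 9 apart.

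Of the 9 genes, 8 had at least 1 pooled candidate region, and unc-4 had none. Over all protein-coding genes the share with such a region was 83.1%, and the 9 windows, from 7.63 to 15.8 kb, were longer than the median window of 7.03 kb. In replicate 1's own list all 9 genes had a region, against 84.5% of all genes, and in replicate 2's list 8 had one, against 85.1%. The gene without a region in replicate 2 was cho-1. None of these counts stands apart from its background share.

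The pooled list held 24 distinct regions in these windows, because unc-17 and cha-1 share 4 of theirs. Their density was 0.252 per kb (95% Poisson interval 0.162 to 0.376), against 0.291 per kb over the windows of all protein-coding genes and 0.299 per kb of the nuclear genome. Replicate 1's list held 39 regions, or 0.410 per kb (0.292 to 0.561, against 0.294 over all windows), and replicate 2's 23, or 0.242 per kb (0.153 to 0.363, against 0.294). All 3 intervals, which cover counting error only, include the value over all windows. The signals of the 24 pooled regions ran from 11.0 to 28.8 with a median of 14.5, and the median of the whole pooled list was 14.2. Their −log10 q ran from 0.0141 to 0.146, below the lowest value of 0.668 among the thresholded peaks.

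**Figure D1:**
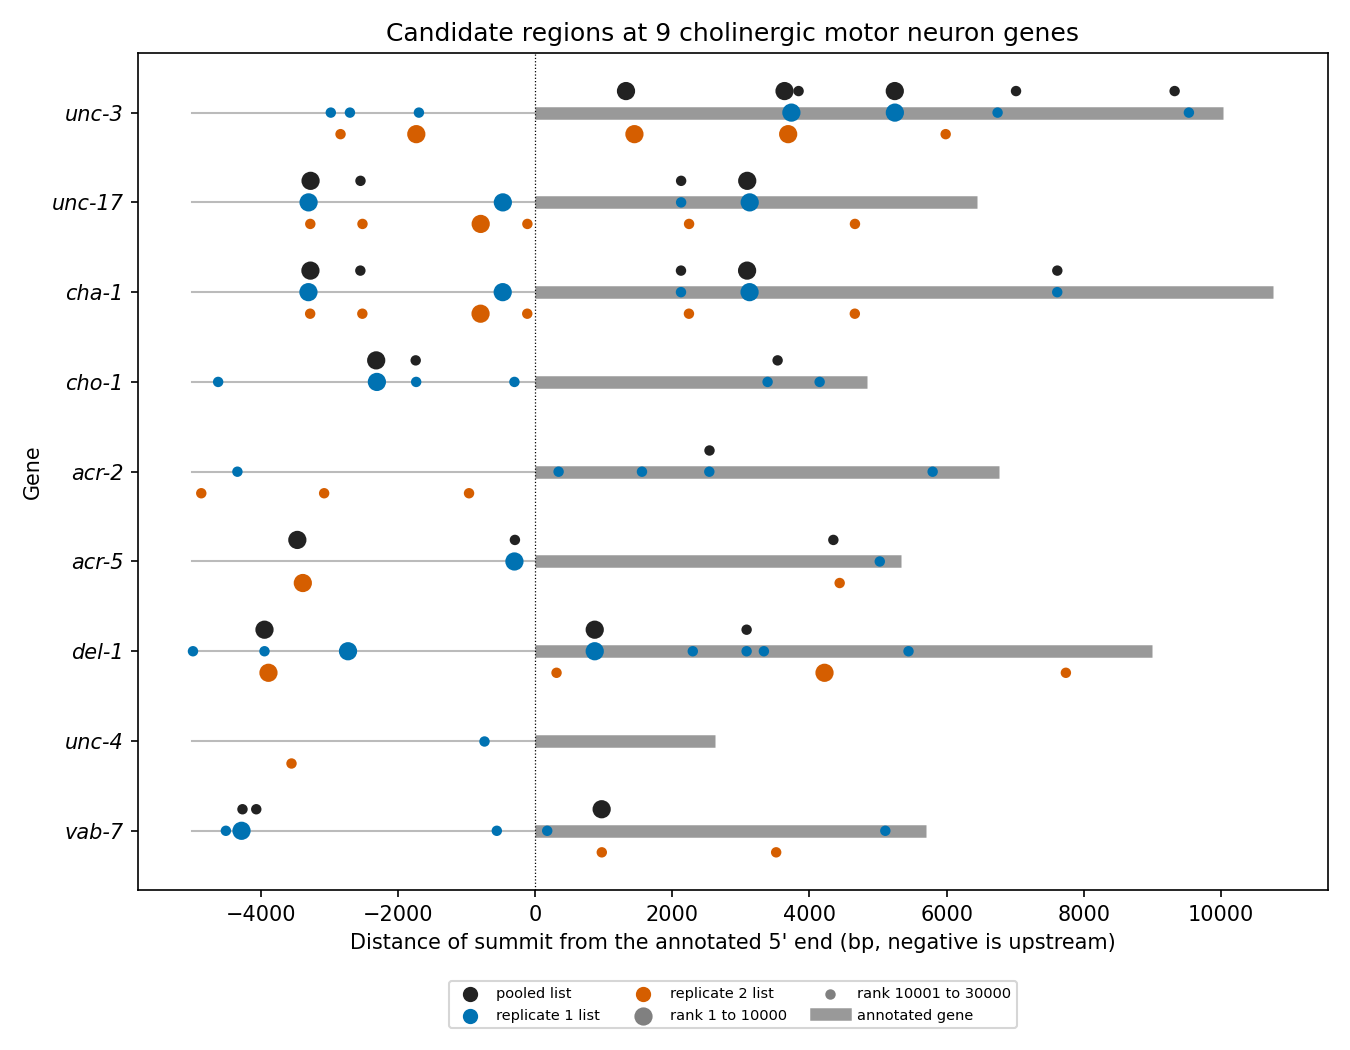
Summits of candidate regions by distance from the annotated 5′ end (bp) at each of the 9 genes, for the pooled list (black), replicate 1 (blue) and replicate 2 (orange), with large points for ranks up to 10000 and grey bars for the genes. The 24 pooled regions lie both upstream and in the genes, unc-4 has no pooled region, and unc-17 and cha-1 show the same regions.

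The sequences below are the 201 bp around the highest pooled summit of the 4 loci whose regions stood highest or lay in all 3 lists, with the region at unc-25, a known UNC-30 target, for comparison. They are shown because the homeodomain core is what UNC-30 is known to bind. Each reads 5′ to 3′ on the strand of its gene in build ce11. Capitals mark TAAT, the core of most homeodomain sites, on either strand, and at vab-7 also TAATC; at unc-25 alone they mark TAATCC, the core bound by homeodomains of the bicoid type.
unc-3, exon 4 and its borders, chrX:14777075-14777275, plus strand: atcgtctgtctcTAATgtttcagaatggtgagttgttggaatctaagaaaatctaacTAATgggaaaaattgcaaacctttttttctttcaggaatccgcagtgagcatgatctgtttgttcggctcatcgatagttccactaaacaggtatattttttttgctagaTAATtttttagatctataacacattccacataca
vab-7, intron 1, chrIII:10921214-10921414, plus strand: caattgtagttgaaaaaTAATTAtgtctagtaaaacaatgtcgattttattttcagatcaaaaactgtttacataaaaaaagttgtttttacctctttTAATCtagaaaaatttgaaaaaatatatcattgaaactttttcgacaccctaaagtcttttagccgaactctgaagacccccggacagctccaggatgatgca
unc-17 and cha-1, upstream, chrIV:3627874-3628074, minus strand: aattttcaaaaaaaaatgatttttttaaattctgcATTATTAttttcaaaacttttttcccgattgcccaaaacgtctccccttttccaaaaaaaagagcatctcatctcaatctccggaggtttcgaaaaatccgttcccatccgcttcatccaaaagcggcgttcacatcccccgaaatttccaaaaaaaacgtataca
del-1, upstream, chrX:14264034-14264234, plus strand: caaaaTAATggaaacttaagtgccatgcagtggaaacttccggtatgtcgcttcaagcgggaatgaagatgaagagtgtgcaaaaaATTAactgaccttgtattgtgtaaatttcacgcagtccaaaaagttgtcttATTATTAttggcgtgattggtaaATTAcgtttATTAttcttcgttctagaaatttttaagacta
unc-25, upstream, chrIII:12942436-12942636, plus strand: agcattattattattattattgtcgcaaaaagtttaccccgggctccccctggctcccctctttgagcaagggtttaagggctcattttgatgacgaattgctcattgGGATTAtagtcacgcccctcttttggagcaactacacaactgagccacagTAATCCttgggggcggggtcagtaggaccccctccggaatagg
The unc-25 window holds TAATCC on each strand, and the 4 windows at the cholinergic loci hold it on neither. Of all pooled regions 7.18% hold it, so its absence from 4 windows does not set them apart from the list.

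Among the regulators, unc-3 had the highest-ranked region of the 9 genes in windows reaching 5000 bp upstream. With a reach of 10000 bp it came second, to a region 8392 bp upstream of unc-17 (pooled signal 29.2, rank 440). unc-3 (WBGene00006743, chrX:14773538-14783568, plus strand) is the COE factor itself, and its window held 6 pooled regions, all inside the gene. The highest, chrX:14776997-14777352, had a pooled signal of 28.8 (rank 476), with its summit in exon 4 of 12, 3637 bp downstream of the 5′ end. It had a counterpart in both libraries, with a signal of 16.5 and rank 976 in replicate 1 and a signal of 15.3 and rank 1321 in replicate 2. The replicates' summits lay 47 bp apart, 100 bp and 53 bp from the pooled summit, so the match with replicate 1 sits at the limit of 100 bp used for a match. Of the protein-coding genes with a pooled region, 95.1% had a lower highest signal in their window, although unc-3's window of 15.03 kb gives it more chances than most. Of the 9 genes it was the 1 with a region among the 1000 highest of the pooled list, a rank that 7.98% of all protein-coding genes reached. The −log10 q of this region was 0.146 in the pooled list, 0.703 in replicate 1 and 0.304 in replicate 2.

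The other pooled regions at unc-3 were lower. A region in intron 5, 5245 bp downstream of the 5′ end, had a signal of 19.5 and rank 4247, with a summit 1 bp away in replicate 1 (signal 13.2, rank 3059) and none within 100 bp in replicate 2. A region in intron 1, at 1325 bp, had a signal of 16.3 and rank 9290, and the nearest summits lay 123 bp away in replicate 2 and 2412 bp away in replicate 1. The remaining 3 had ranks from 17698 to 20092, and the one of rank 17698 shares bases with the highest region. The upstream part of the window held no pooled region.

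**Figure D2:**
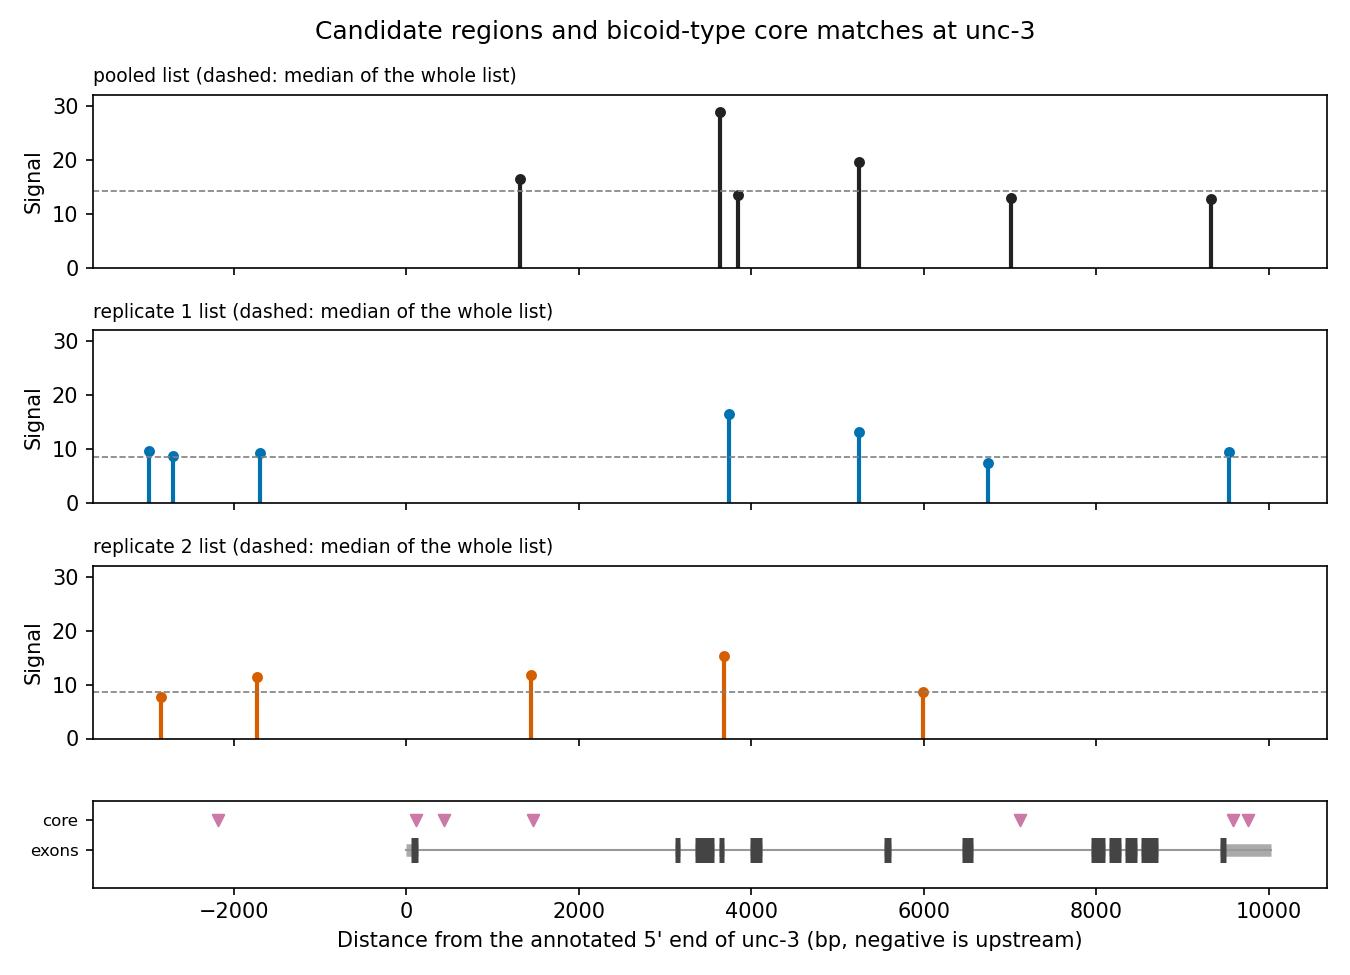
Signal of each candidate region (vertical lines) by distance from the 5′ end of unc-3 (bp) in the pooled list and each replicate's list, above the exons (dark, coding) and the bicoid-type core matches (triangles). The region in and beside exon 4 is the highest in each of the 3 lists, and none of the 7 core matches lies at it.

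unc-4 and vab-7 encode homeodomain proteins that divide the cholinergic neurons into classes: UNC-4 acts in the A class to keep B-class genes off, and VAB-7, an even-skipped homologue, specifies DB. unc-4 (WBGene00006744, chrII:9897751-9900376, minus strand) had 1 region in each replicate's list, of rank 10212 in replicate 1 (signal 9.74, 740 bp upstream) and rank 29711 in replicate 2 (signal 6.37, 3561 bp upstream). These 2 summits were 2821 bp apart, so the lists share no region at this gene. vab-7 (WBGene00006873, chrIII:10920344-10926041, plus strand) had 3 pooled regions. The highest, chrIII:10921136-10921491, had a signal of 22.3 and rank 2132, with its summit in intron 1, 970 bp downstream of the 5′ end. Replicate 2 had a summit 2 bp away (signal 8.79, rank 14442), and replicate 1 had none closer than 794 bp. The other 2 lay 4067 and 4268 bp upstream, in an intron of the neighbouring cut-6, and share bases with each other. vab-7 begins 11409 bp from unc-119, the gene that is mutated in this strain; the part of that neighbourhood in vab-7's values was not tested.

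The genes of acetylcholine handling come next. unc-17 encodes the vesicular acetylcholine transporter and cha-1 choline acetyltransferase, which makes the transmitter, and the genes overlap on the minus strand of chromosome IV (unc-17, WBGene00006756, chrIV:3618259-3624699; cha-1, WBGene00000481, chrIV:3613931-3624697). Their annotated 5′ ends are 2 bp apart, so every region upstream belongs to both and cannot be given to either. The highest of the locus, chrIV:3627796-3628151, had a signal of 17.6 and rank 6952, 3275 bp upstream of unc-17 and intergenic. It was found again within 29 bp in replicate 1 (signal 13.3, rank 2890) and within 4 bp in replicate 2 (signal 6.88, rank 25838), close in place and far apart in rank.

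Inside the locus, regions in intron 2 of unc-17, which is also intron 1 of cha-1, had signals of 16.4 (rank 9242) and 15.5 (rank 11261). Both had a replicate 1 summit within 36 bp and no replicate 2 summit within 100 bp. A region 2547 bp upstream of unc-17 (signal 12.9, rank 19649) was matched in replicate 2 alone, 29 bp away. One region belonged to cha-1 only, in its intron 3 (signal 13.2, rank 18548). Near the shared start, where the pooled list had nothing, replicate 1 had a region 471 bp upstream of unc-17 (signal 11.3, rank 5916). Replicate 2 had regions 113 bp (signal 8.47, rank 16047) and 794 bp upstream (signal 10.05, rank 9494), and none of these 3 summits matched a summit of the other library. Beyond the window, 8392 bp upstream of unc-17, chrIV:3632913-3633268 had a pooled signal of 29.2 and rank 440, with a replicate 2 summit of rank 89 lying 10 bp away and the nearest replicate 1 summit (rank 7538) 211 bp away. Which gene's 5′ end lies nearest to this region was not determined.

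cho-1 (WBGene00000501, chrIV:13209730-13214566, minus strand) encodes the choline transporter that brings choline back into the terminal. Its highest pooled region, chrIV:13216706-13217061, had a signal of 18.2 and rank 6024, 2318 bp upstream of the 5′ end in intergenic sequence. Replicate 1 had the same region 10 bp away (signal 11.3, rank 6031) and 6 regions in the window in all, whereas replicate 2 had 0. The other pooled regions at cho-1 had ranks 20889 and 22651. The nearest replicate 2 summits to the 3 pooled ones lay 4615 to 5191 bp away.

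acr-2, acr-5 and del-1 encode ion channel subunits of cholinergic motor neurons: acr-2 and acr-5 subunits of acetylcholine receptors, and del-1 a subunit of the degenerin and epithelial sodium channel family. acr-2 (WBGene00000042, chrX:6702549-6709308, plus strand) had 1 pooled region, in intron 2, with a signal of 13.9 and rank 16173, the lowest best rank among the 8 genes with a pooled region. Replicate 1 had its summit at the same base (signal 9.15, rank 12420), and replicate 2's 3 regions in the window all lay upstream of the gene.

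acr-5 (WBGene00000044, chrIII:6509445-6514773, minus strand) had 3 pooled regions, of which the highest (signal 16.3, rank 9410) lay 3468 bp upstream and closer to the 5′ end of C09E7.10. Replicate 2 had it, 80 bp away (signal 11.1, rank 6592), and replicate 1 did not. Counting only the annotated 5′ end of the gene, and not later transcript starts, the pooled region nearest to a member's own 5′ end was also at acr-5. It covered chrIII:6514890-6515245, 295 bp upstream, with a signal of 13.9 and rank 16034. Here replicate 1 had a summit 7 bp away (signal 12.1, rank 4480) and replicate 2 none within 3093 bp.

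del-1 (WBGene00000952, chrX:14268081-14277082, plus strand) had a region in all 3 lists. It covered chrX:14263956-14264311, 3947 bp upstream of del-1 and 561 bp from the 5′ end of E02H4.8, with a signal of 19.4 and rank 4396. Replicate 1 had the same summit base (signal 8.40, rank 15771) and replicate 2 a summit 58 bp away (signal 12.8, rank 3552). A region in intron 1 of del-1 (signal 18.5, rank 5570) was matched at the same base in replicate 1 (signal 11.1, rank 6325) and not in replicate 2. The third, of rank 28745, lay 57 bp from the start of a del-1 transcript that begins further downstream, in its 5′ UTR.

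**Figure D3:**
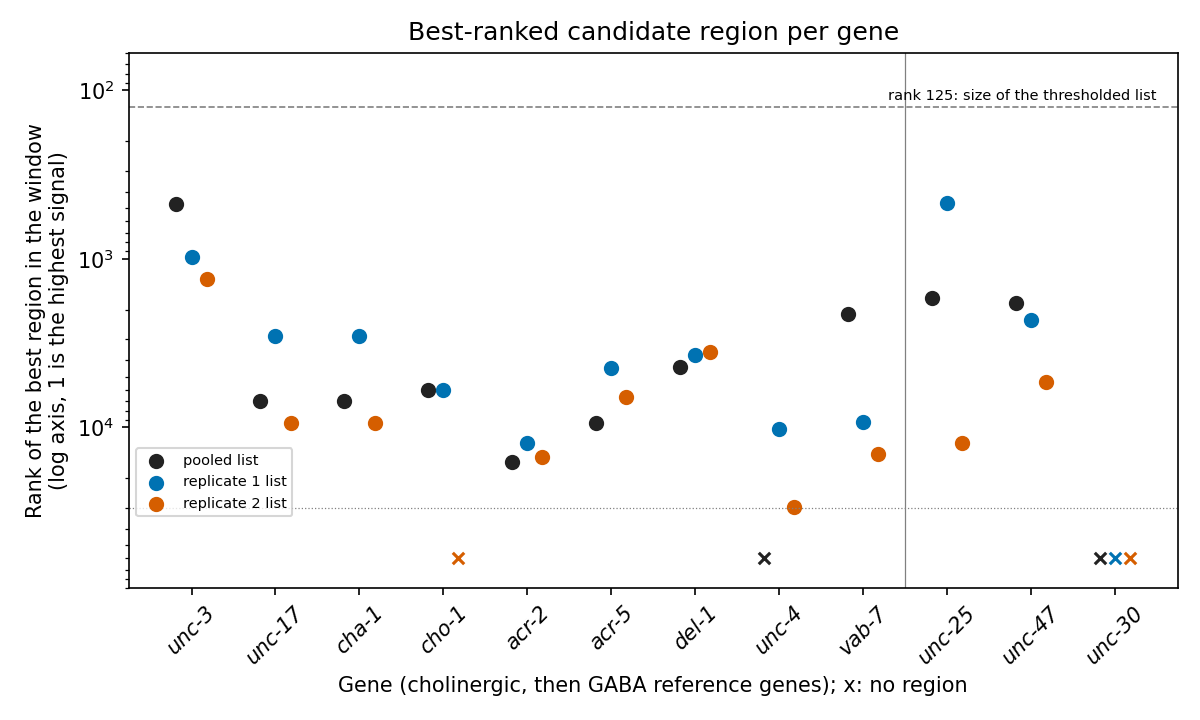
Rank of the best candidate region in each gene's window (log axis, 1 is the highest signal) in the pooled list and in each replicate's list, with crosses where a list has no region. Within the reach of 5000 bp used here, unc-3 has the best rank among the 9 cholinergic genes in each of the 3 lists, and none of the genes reaches rank 125.

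In order of the highest pooled signal the genes stood as unc-3 (28.8), vab-7 (22.3), del-1 (19.4), cho-1 (18.2), unc-17 with cha-1 (17.6), acr-5 (16.3) and acr-2 (13.9). Below unc-3 the deposited −log10 q of these regions did not follow the signal. It was 0.146 at unc-3, 0.0198 at vab-7, 0.0180 at del-1, 0.0271 at cho-1, 0.0300 at unc-17, 0.0373 at acr-5 and 0.0481 at acr-2. A higher signal here was therefore not a lower q value. The order depended on the window: with a reach of 10000 bp unc-17 with cha-1 rose from the fifth place to the first (29.2, against an unchanged 28.8 at unc-3), and acr-5 (18.8) passed cho-1. With a reach of 2000 bp cho-1 fell to 12.6, below an unchanged 13.9 at acr-2. In the 5000 bp windows the median over the 8 genes was 17.9, and the median over all protein-coding genes with a region was 17.2. A rank among the 10000 highest was reached by 7 of the 9, against 49.4% of all genes, again with longer windows than most. Both values count the shared highest region of unc-17 and cha-1 once for each gene. This order changed between the libraries: replicate 1 ranked unc-3, unc-17 with cha-1 and del-1 highest, and replicate 2 unc-3, del-1 and acr-5. With no spread over samples for a pooled signal, neighbours in this order cannot be said to differ. The reference genes of the GABA fate had best pooled ranks of 1707 at unc-25 (signal 23.1) and 1836 at unc-47 (signal 22.8), both between unc-3 and vab-7. unc-30 had no region in any list. From the TAATCC match 35 bp upstream of unc-30, the nearest pooled summit lay 24480 bp away. The nearest replicate 1 and replicate 2 summits lay 24485 and 22218 bp away, although each list holds 0.299 regions per kb of the nuclear genome. The transgene also encodes UNC-30, and its part in this gap was not tested. The unc-47 region lay 3947 bp upstream, closer to the 5′ end of epac-1. At unc-25 and unc-47 the highest region had a replicate 1 summit at the same base (ranks 468 and 2321). The nearest replicate 2 summits lay 1095 and 893 bp away, so neither was matched in replicate 2.

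The libraries shared few of these regions. Of the 24 pooled regions, 14 had a replicate 1 summit within 100 bp, or 58.3% (95% Wilson interval 38.8 to 75.5), against 47% of all pooled regions. Replicate 2 had 7, or 29.2% (14.9 to 49.2), against 46.1%. Both replicates matched at 3 regions, those at unc-3 (exon 4), upstream of unc-17 and cha-1, and upstream of del-1, which is 12.5% (4.34 to 31.0) against 14.4% of all pooled regions. Replicate 1 alone matched at 11, replicate 2 alone at 4 and neither at 6. Each of the 3 intervals includes the share over all regions, so no difference from the rest of the list was detectable with 24 regions.

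**Figure D4:**
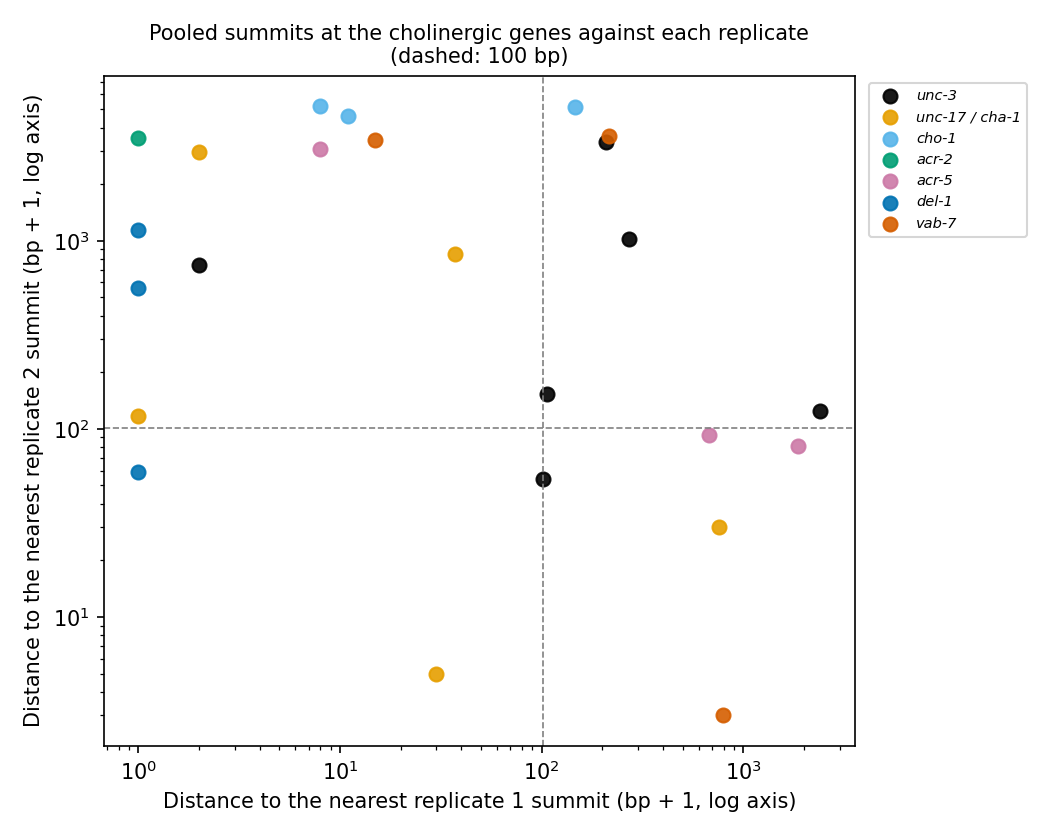
Distance from each of the 24 pooled summits to the nearest summit of replicate 1 (horizontal) and of replicate 2 (vertical), both in bp plus 1 on log axes, coloured by gene, with dashed lines at 100 bp. The 3 points in the lower left, 1 of them on the line, are the regions found in both libraries, and most others lie near a replicate 1 summit only.

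By place, 15 of the 24 summits (62.5%) lay in introns, 7 (29.2%) between genes, 1 in a coding exon and 1 in a 5′ UTR. Over the whole pooled list introns held 38.4% and intergenic sequence 43.0%; the windows cover these genes by construction, so the shares are not set against each other. Of the 24 regions, 9 lay upstream of the member's 5′ end and 6 had the 5′ end of a gene outside the 9 as the nearest one. On chromosome X, which carries unc-3, acr-2 and del-1, lay 10 of the 24. Over the whole pooled list chromosome X held 17.76%. The choice of genes sets how much of the windows lies on X, so the count is not set against that share.

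Within 100 bp to either side of the summit, on either strand, TAATCC was present at 0 of the 24 pooled regions, which allows a share of up to 12.5%. The share over all pooled regions was 7.18%, so a shortfall of TAATCC at these genes was not detectable with 24 regions. The shorter TAATC, 1 of the alternatives tried, was present at 3 of the 24 (12.5%, Wilson interval 4.34 to 31.0). Over all pooled regions its share was 31.5%, just above that interval. TAAT, which every TAATCC contains, was present at 20 of the 24 (83.3%, Wilson interval 64.1 to 93.3), against 90.1% of all pooled regions. In the replicates' own lists 2 of 39 regions of replicate 1 held TAATCC (5.13%, against 7.07% of that list) and 2 of 23 of replicate 2 (8.70%, against 6.86%). All 4 of these lay at unc-3 and del-1 and none matched a summit of the other library.

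The members' windows did hold TAATCC, but away from the pooled summits. Each of the 9 windows had at least 1 match, 25 distinct matches in all, or 0.263 per kb against 0.366 per kb of the nuclear genome. None lay within 100 bp of a pooled summit, which allows a share of up to 12%, and over the genome 6.53% did. In the unc-25 window 3 of 10 matches lay within 100 bp of a pooled summit, at unc-47 1 of 4, and at unc-30, which has no region, 0 of 3. Such matches were not limited to the GABA genes, since some of the further genes described below had them too. The closest match at a member was at unc-3, 105 bp from the summit of rank 19576. The next, in intron 1 of unc-3, lay 141 bp from the pooled summit of rank 9290 and 18 bp from the replicate 2 summit of rank 5284 (signal 11.7). The third closest lay 158 bp from the highest region of the unc-17 and cha-1 locus. These 3 sites are shown on the gene's strand with TAATCC, or its reverse complement, in capitals.
unc-3, intron 7, chrX:14780639-14780674, plus strand: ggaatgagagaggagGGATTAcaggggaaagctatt
unc-3, intron 1, chrX:14774987-14775022, plus strand: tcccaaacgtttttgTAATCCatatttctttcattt
unc-17 and cha-1, upstream, chrIV:3627799-3627834, minus strand: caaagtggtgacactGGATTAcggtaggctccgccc
A match is a description of the letters there and not evidence of a bound site.

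COE proteins such as UNC-3 bind a palindrome, TCCC and GGGA separated by any 2 bases, and its matches mark where the cholinergic regulator itself could bind. It was present at 0 of the 24 pooled regions and at 0.0633% of all pooled regions. The windows of the 9 genes held 3 distinct matches, 2 at the unc-17 and cha-1 locus and 1 at del-1, or 0.0316 per kb against 0.00389 per kb of the nuclear genome. They lay 306 to 673 bp from the nearest pooled summit, and over the genome 4.87% of matches lay within 100 bp of one. The 3 sites are shown with the palindrome in capitals, to give the place of these letter matches relative to the candidate regions. Whether UNC-3 binds them was not tested.
unc-17 and cha-1, intronic, chrIV:3621911-3621950, minus strand: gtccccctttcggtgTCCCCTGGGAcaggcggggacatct
unc-17 and cha-1, upstream, chrIV:3627649-3627688, minus strand: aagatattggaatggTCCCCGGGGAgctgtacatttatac
del-1, chrX:14271819-14271858, plus strand: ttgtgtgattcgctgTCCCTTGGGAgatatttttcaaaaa
The upstream match at unc-17 lay 306 bp from the summit of the region that all 3 lists share, and that region's own 201 bp, printed above, contain no match.

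**Figure D5:**
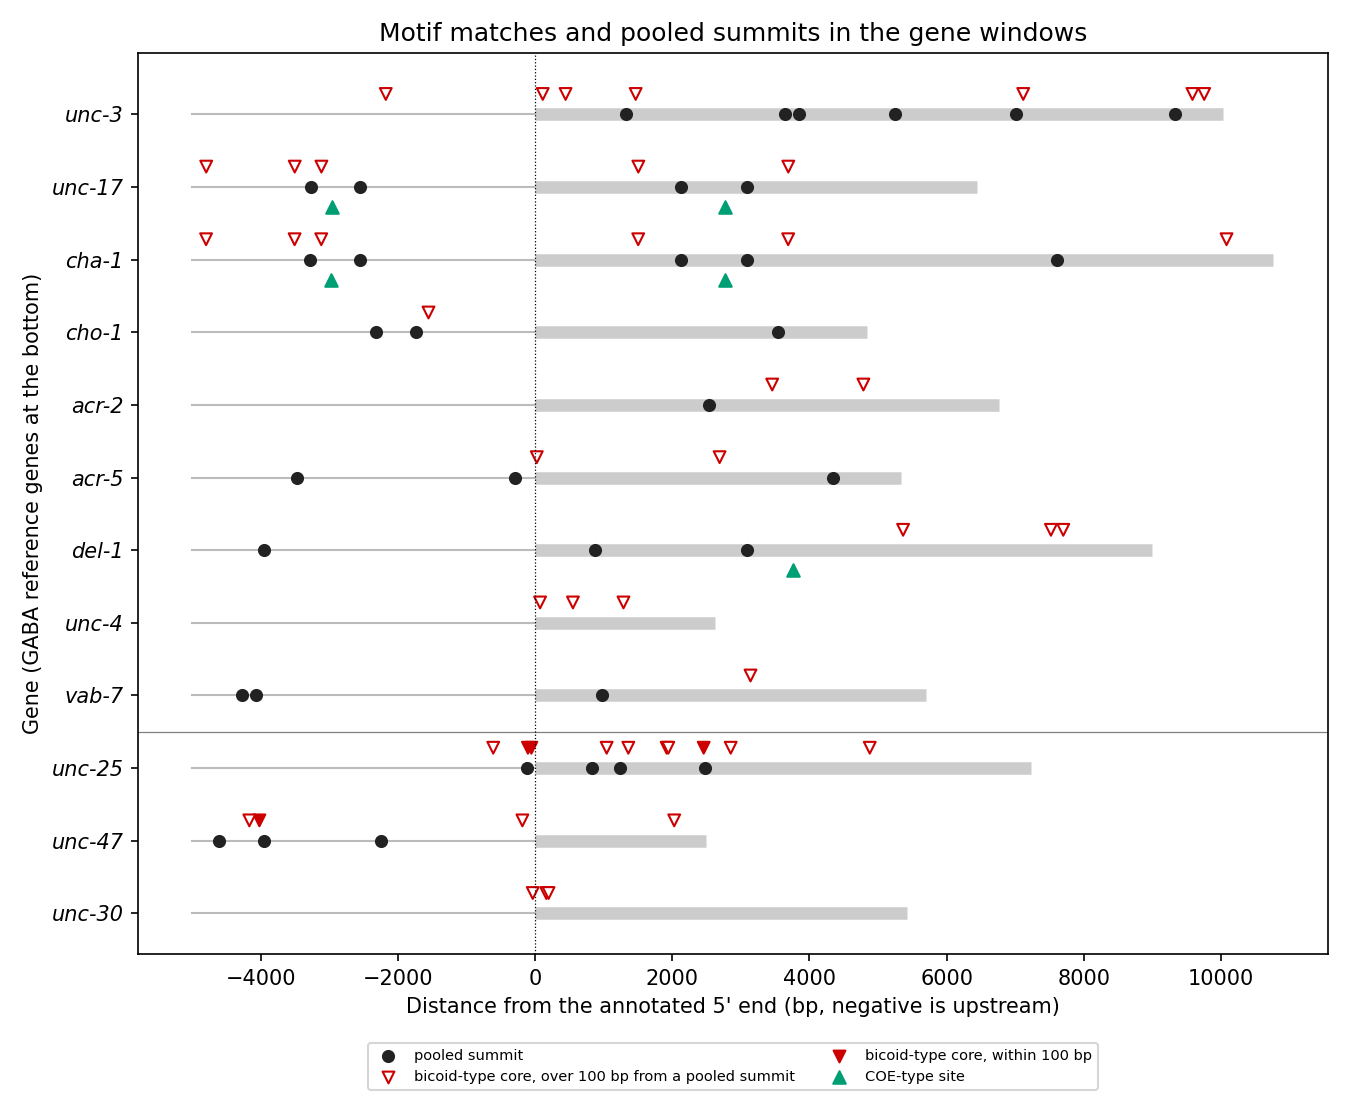
Bicoid-type core matches (red triangles, filled where within 100 bp of a pooled summit), COE-type matches (green triangles) and pooled summits (black) by distance from the 5′ end (bp), for the 9 cholinergic genes and, below the line, unc-25, unc-47 and unc-30. No core match is filled at the 9 genes or at unc-30, while 3 are at unc-25 and 1 is at unc-47. The 25 further genes described below are not drawn, and some of them have such a match.

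A further list of 25 genes, taken by name for the cholinergic motor neuron pathway, covered breakdown of the transmitter, receptors and channels, secreted and surface proteins, and regulators of class. Whether each gene is particular to these neurons was not checked, so the counts describe the list and not the cholinergic fate alone. All 25 had a pooled region in the window, against 83.1% of all protein-coding genes, and 0 had a thresholded peak. For thresholded peaks the share over all genes was not computed. A region among the 10000 highest was found at 11 (44%, against 49.4% of all genes) and one among the 1000 highest at 1 (4%, against 7.98%), so these shares were near or below the background. The median highest signal was 15.5, below the 17.2 over all protein-coding genes with a region. By group, ranks among the 10000 highest were reached by 2 of 3 acetylcholinesterase genes, 3 of 8 receptor and channel genes, 3 of 5 genes of secreted and surface proteins and 3 of 9 class regulators.

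The 5 with the highest signals were nlp-21, glr-5, tsp-7, ace-2 and glr-4. nlp-21, which encodes neuropeptide precursors, had a signal of 28.6 and rank 491 in an intron, 903 bp downstream of the 5′ end, with replicate 1 matching at rank 1725 and the nearest replicate 2 summit 146 bp away. glr-5, a glutamate receptor subunit gene, had 19.8 (rank 3931, 3740 bp upstream and closer to ZC178.2), matched in replicate 2 alone. tsp-7, a tetraspanin gene, had 19.2 (rank 4650) in an intron and was matched in both replicates, at ranks 12889 and 26191. ace-2, an acetylcholinesterase gene, had 18.6 (rank 5435, 898 bp upstream), and glr-4, another glutamate receptor subunit gene, 17.6 (rank 6907, 791 bp upstream), both matched in replicate 1 alone. None of these 5 regions held TAATCC, which 7.18% of all pooled regions held, so its absence does not set them apart. Over the full windows, 1 TAATCC match lay within 100 bp of a pooled summit at each of acr-16, glr-4, mab-9, unc-55, lin-39 and mab-5. The rest of the 25 genes had none, and over the genome 6.53% of matches lay that near.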

How the data were processed

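The deposited lists used were of 2 kinds, all in build ce11: candidate regions (pooled, and 1 list for each replicate) and the thresholded peaks. Per the file lists that accompany the deposited data, the candidate lists derive from the alignments of the replicate or replicates and 1 further file, and the thresholded list from the candidate lists. Names for the aligner, peak caller and control were not given in the sources used here. The signal and the −log10 q of each region are values the authors deposited, and the summit is the start plus the deposited offset. Library depth is unknown. Ranks are within a whole list, and replicate 2's includes its few mitochondrial regions.

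From these, genes of Ensembl release 115 were given regions by summit position, summits within 100 bp were called matched, and motifs were searched in 201 bp windows of the WBcel235 genome sequence (NCBI) on both strands (Python 3.11.15, numpy 2.4.6, pandas 2.3.3). A region's location was taken as coding exon, then UTR, then intron of any protein-coding gene, with intron and exon numbers from the longest transcript. Intervals are 95% Wilson or exact Poisson intervals, and a count of 0 allows up to 3; both cover counting error only. The functions were tested on simulated data. Coordinates count from 1. The ce10 lists were not used here. The 9 genes were named in full. Of the 25 further genes the 5 with the highest pooled signal were named with values, and those with a TAATCC match near a pooled summit were also named. The members and lists were chosen with earlier results of these data known. Alternatives for window, list, match distance, motif and replicate were tried.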

Additional observations from a re-analysis of the deposited data

How the results depend on the processing

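The number of genes with a region was 8 with upstream reaches of 2000 and 10000 bp, with windows over any annotated transcript and with regions kept only at their nearest 5′ end, and 7 with the 10000 highest pooled regions. It was 1 with the 1000 highest and 0 with the thresholded peaks, which hold fewer regions by construction. Without 1 replicate, that is with the other's own list, it ranged from 8 to 9. The 24 regions became 10 among the 10000 highest, 1 among the 1000 highest and 0 among thresholded peaks, and ranged from 23 to 39 without 1 replicate, 39 being the value without replicate 2. The 3 regions matched in both replicates became 1 within 50 bp, 5 within 200 bp, 5 by any shared base and 1 with the 10000 highest regions of each replicate; the cause was not tested. The 0 regions with TAATCC became 4 within 200 bp and were 2 from either replicate's own list. With TAATC within 100 bp they became 3 of 24 (12.5%, Wilson interval 4.34 to 31.0), against 31.5% of all pooled regions. That interval ends just below the share over all regions. The median highest signal of 17.9 became 16.4 with a reach of 2000 bp and 20.8 with 10000 bp. At 10000 bp the highest signal at unc-17 and cha-1 went from 17.6 to 29.2, past the 28.8 of unc-3. No paired analysis was possible because both libraries belong to 1 group. Unknown depth limits every statement on absence.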

Other observations

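One place near unc-3 was a candidate in both libraries and not in the pooled list; it was chosen after its values were seen. Replicate 1 had a summit 1695 bp upstream of unc-3 (signal 9.30, rank 11847) and replicate 2 one 1733 bp upstream (signal 11.5, rank 5713), 38 bp apart. Both lay at the start of the neighbouring gene Y16B4A.2, and the nearest pooled summit was 3020 bp from the first and 3058 bp from the second. It was the 1 such case at the 9 genes: 4 of the 39 replicate 1 regions there had a replicate 2 summit within 100 bp, and the other 3 were in the pooled list too. Those 4 are 10.3% of the 39 and 17.4% of replicate 2's 23 regions, and over the whole nuclear lists the shares were 14.1% in both directions.

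Regions of a single library at these genes were often in no other list, as over the whole lists. Of replicate 1's 39 regions, 24 (61.5%) had no summit within 100 bp in the pooled list or in replicate 2, against 52.2% of its whole nuclear list. Of replicate 2's 23 regions, 15 (65.2%) had none in the pooled list or in replicate 1, against 53.1%. The regions in the pooled list were 35.9% of replicate 1's and 30.4% of replicate 2's, against 47.01% and 46.1% over the whole nuclear lists.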
